A study of Homo sapiens with 6 samples.

Results

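Collagen chain genes encode the alpha chains of the collagens, the main structural proteins of the extracellular matrix. The count table held 44 rows whose symbol was COL, a number, A and a number, out of 58735 rows in all, and antisense genes were not taken. Of these 44 chains, 32 had enough reads to be tested, among 15935 genes tested over the whole table. The other 12 chains were at or near 0. Chains were grouped by the kind of collagen they build: 11 fibrillar chains, 9 network-forming chains, 10 FACIT chains and 14 chains of other kinds.

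The samples were RD cells, a human line from an embryonal rhabdomyosarcoma, a tumor with features of skeletal muscle. The comparison addressed what happens to gene expression when TAK1, a kinase encoded by MAP3K7 that relays cytokine and stress signals, is silenced. Control cells were transduced with a lentivirus carrying a scrambled short hairpin RNA (Scrambled shRNA, n = 3), and knockdown cells with one carrying a hairpin against TAK1 (TAK1 shRNA, n = 3). Both groups therefore carried a lentivirus, and poly(A)-selected RNA was sequenced from each. One hairpin and 1 cell line stand behind every value here, so effects of the hairpin on other transcripts cannot be told apart from effects of TAK1. The labels do not say that the replicates were separate cultures, so p-values measure the spread between these samples, which may be technical.

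The libraries held between 28839898 and 34469323 counts. MAP3K7 was at 77.9, 76.5 and 77.6 counts per 1000000 (CPM) in the control libraries and at 30.5, 33.6 and 29.9 CPM in the knockdown libraries, as the labels say (log2 fold change -1.30 ± 0.062 SE, adjusted p = 4.45e-14). The muscle identity of the cells was checked on 10 muscle lineage markers. Their summed level was 2120 to 2160 CPM in control and 2070 to 2180 CPM in knockdown libraries. CHRNA1 gave the largest part, with means of 921 and 700 CPM. PAX7 and DES were present, MYF5 was at 0 in every library and MYF6 had at most 1 count. Of the 8 that could be tested, MYOD1 (log2 fold change 0.37 ± 0.047) and MYOG (0.27 ± 0.050) rose and CHRNA1 (-0.40 ± 0.039) fell. Markers of epithelial cells and leukocytes summed to at most 0.453 CPM in any library, with CDH1, KRT14, KRT19 and CD3E at 0. Fibroblast markers summed to 131 to 140 CPM in control and 127 to 140 CPM in knockdown libraries, and DPT was at 0 in all of them. Most of that sum was THY1, with means of 108.5 CPM in control and 103.7 CPM in knockdown cells, and PDGFRL gave most of the rest. In any library DCN reached at most 5.24 CPM, LUM 6.39 CPM and PDGFRA 0.485 CPM. FAP and TCF21 had at most 4 and 5 counts.

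Collagens are trimers of alpha chains wound into a triple helix, and several types need chains from different genes, so that the balance between partner genes matters as well as their level. Fibrillar collagens make the banded fibrils that bear tension. Network collagens form sheets such as the basement membrane that surrounds each muscle fiber, FACIT collagens sit on the surface of fibrils and connect them to their surroundings, and the remaining kinds include beaded filaments, membrane-spanning collagens and the basement-membrane multiplexins. In muscle, most of these chains are usually made by fibroblasts of the connective tissue, while myogenic cells contribute to the layer around the fiber.

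Promoter sequences are shown for a pair of partner genes that share a control region but parted in response, and for 1 chain that rose and 1 that fell strongly. COL4A1 and COL4A2, which encode the partner chains of the main basement-membrane collagen, are read in opposite directions from start sites 127 bases apart on chromosome 13. The first line gives the 126 bases between those start sites, on the strand of COL4A2. The other lines give the 250 bases before the start of COL5A3, a fibrillar chain that rose, and of COL26A1, a chain that fell. They come from RefSeq (GRCh38.p14) and were read at chr13:110307158-110307283 on the plus strand, chr19:10010505-10010754 on the minus strand and chr7:101362625-101362874 on the plus strand. Capitals mark matches to CCAAT or to the GC box GGGCGG.
COL4A1/COL4A2: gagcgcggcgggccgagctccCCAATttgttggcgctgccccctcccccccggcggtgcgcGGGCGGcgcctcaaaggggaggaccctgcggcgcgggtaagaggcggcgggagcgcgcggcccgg
COL5A3: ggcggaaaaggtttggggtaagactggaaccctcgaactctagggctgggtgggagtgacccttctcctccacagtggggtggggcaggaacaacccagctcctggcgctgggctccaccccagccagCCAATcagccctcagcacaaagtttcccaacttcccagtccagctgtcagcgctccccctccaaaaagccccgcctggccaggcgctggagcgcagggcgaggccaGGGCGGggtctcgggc
COL26A1: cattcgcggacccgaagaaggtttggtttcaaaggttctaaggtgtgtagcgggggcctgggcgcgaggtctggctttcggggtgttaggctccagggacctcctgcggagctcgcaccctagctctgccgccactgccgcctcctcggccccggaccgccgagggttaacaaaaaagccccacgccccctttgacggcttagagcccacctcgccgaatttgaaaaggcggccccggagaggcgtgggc
The COL4A1/COL4A2 interval had a GC content of 80.2% and held 1 CCAAT match and 1 GC box match, as did the COL5A3 sequence. The COL26A1 sequence held no match to any of the 6 motifs searched.

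The motifs were searched on both strands in windows from 250 bases before to 50 bases after each RefSeq start. These were available for 32 of the 44 chain genes, as 44 windows, because some genes have several starts. The TATA box (TATAAA) was found in 18.2% of the windows of chain genes and in 11.5% of 35116 windows over all genes. CCAAT matched 31.8% of the chain windows and 34.6% of all windows, and the GC box matched 54.5% and 45% of them. An AP-1 site (TGANTCA) was found in 2.27% of chain windows against 7.71% of all windows, the 1 match being in COL10A1. The NF-kB motif (GGGNNTTCC) matched 6.82% against 6.58%, and the TEAD motif (CATTCC), which can share letters with it, 6.82% against 14%. The counts that follow are per gene, not per window, so a gene with several windows, such as COL11A2 or COL5A1, counted if any of them matched. COL3A1 and COL8A1 were among the called chains without a window. Of the chains that rose, 5 of 7 had a window and all 5 held a GC box. Of those that fell, 4 of 6 had a window and 2 of these held one, as did 9 of the 14 windowed genes among the chains that were not called. CCAAT was in 2 of the 5 that rose, 2 of the 4 that fell and 4 of the 14 not called. In the same order the TATA box was in 0, 0 and 4, NF-kB in 0, 1 and 2, TEAD in 1, 1 and 0, and AP-1 in 0, 0 and 0. Shares over all genes were taken per window, so they cannot be set beside these counts per gene. The motif results are only counts of letter matches. They say nothing about binding of a factor.

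A gene was called when its adjusted p from edgeR was under 0.05 and its log2 fold change was at least 0.25 in either direction. By that rule 7 of the 32 tested chains rose and 6 fell after TAK1 knockdown, against 11.8% of all tested genes that rose and 11.3% that fell. The 13 chains called were 40.6% of those tested, where 23.1% of all tested genes were called in either direction. The median log2 fold change of the 32 chains was -0.0047, with 16 above and 16 below 0, beside a median of 0.018 over all tested genes. The median size of the change, without its sign, was 0.16 for the chains and 0.19 for all genes. Control and knockdown libraries did not overlap in 16 of the 32 chains, which is true of 43.9% of all tested genes. As these are bulk samples, fewer cells making a collagen and less RNA per cell cannot be told apart.

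Called chains were counted in each of the 4 kinds of collagen. Among the fibrillar chains, 4 rose and 1 fell, with a median log2 fold change of 0.13. Of the 7 FACIT chains tested, 3 rose and 1 fell, with a median of 0.16. Both called network chains fell among 5 tested, with a median of -0.064, and both called chains of other kinds fell among 9 tested, with a median of -0.084. The called share was 45.5% for fibrillar, 40.0% for network, 57.1% for FACIT and 22.2% for other chains, all to be read beside the 23.1% over all genes. The difference between kinds was not tested.

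**Figure D1:**
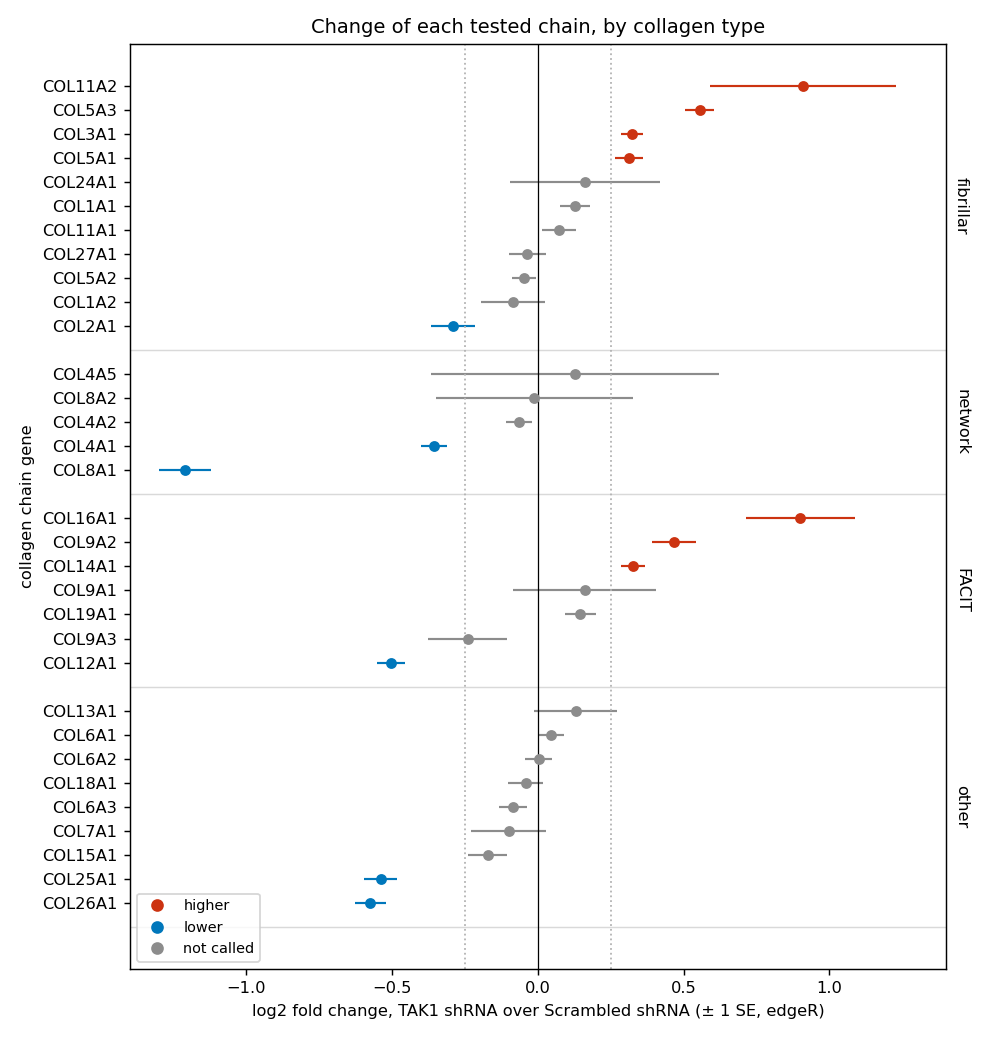
Log2 fold change of TAK1 shRNA over Scrambled shRNA (horizontal axis) for each of the 32 tested chains (vertical axis), arranged by kind of collagen; points are edgeR estimates from 3 libraries against 3, bars are ± 1 SE, and dotted lines mark the fold threshold of 0.25. Called chains on the right are fibrillar or FACIT, and the called network and other chains all lie on the left, down to -1.21 for COL8A1.

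Levels of different genes are compared here as CPM per kilobase of the canonical transcript. COL3A1, the chain of type III collagen, was by far the most abundant, at 1127 ± 28.3 CPM per kilobase (SD, n = 3) in control and 1410 ± 62.1 in knockdown cells. That was 5.72 times the level of the next chain, COL5A2, in control cells and 7.4 times in knockdown cells. In control cells COL5A2 (197 ± 6.65), COL4A1 (190) and COL4A2 (179) followed, all in CPM per kilobase. The microfibril chains COL6A1 (106) and COL6A2 (103) came next, then COL18A1 (88.3), COL26A1 (86.6), COL1A1 (81.5) and COL14A1 (77.4). Below COL5A2 this order depends on the transcript length. With the union of all exons of a gene, COL3A1 (915) and COL5A2 (184) still led in control cells, but COL4A1 was at 84.8 CPM per kilobase. COL4A2 was then at 59.8, below COL26A1 (83.2), COL6A1 (80.6), COL6A2 (66.3) and COL14A1 (60.8). COL1A2, the partner of COL1A1, was at only 2.04 CPM per kilobase in control and 1.93 in knockdown cells.

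**Figure D2:**
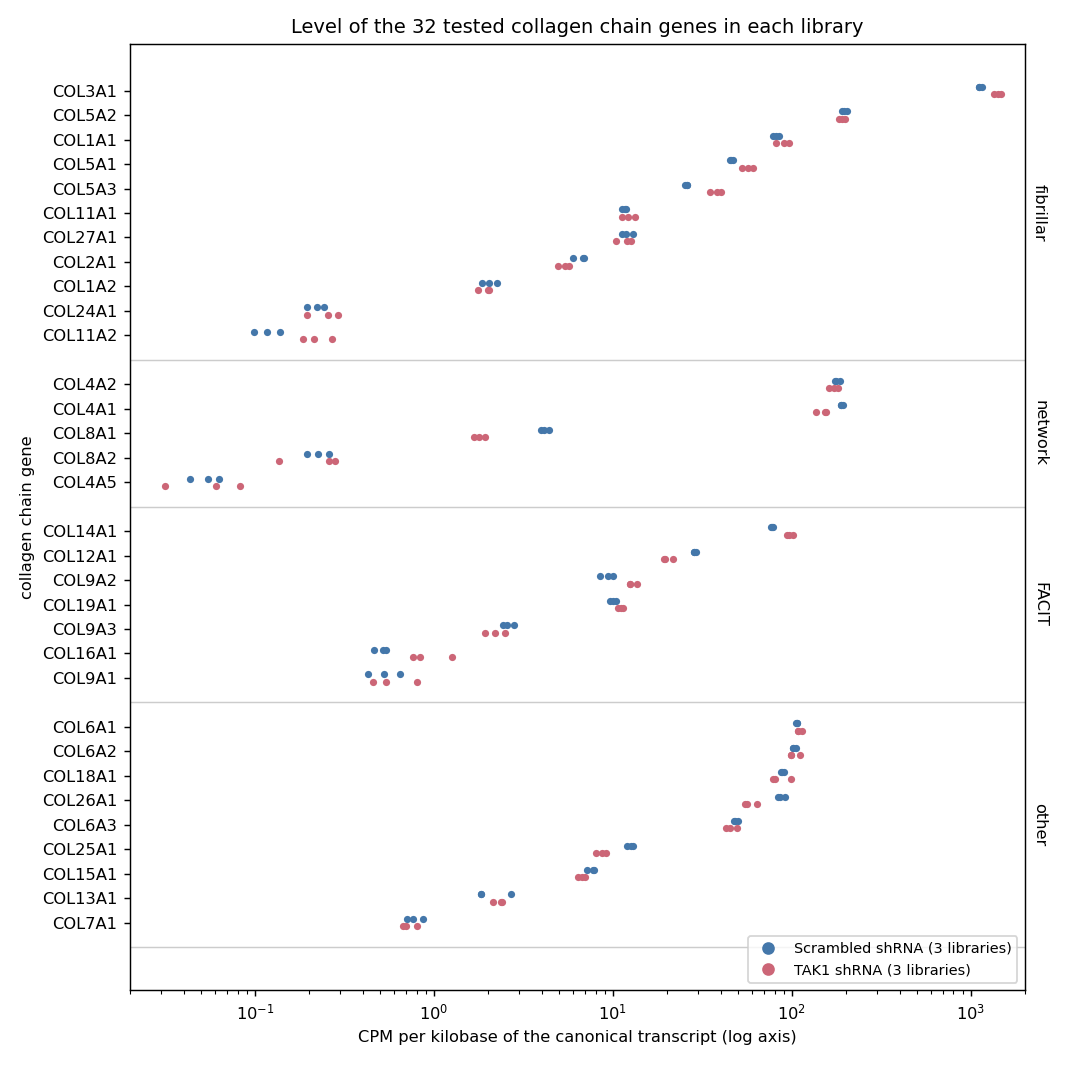
Level of each tested chain in each library, in CPM per kilobase of the canonical transcript on a log axis, with chains grouped by kind and ordered by level; each point is 1 library, blue for Scrambled shRNA and red for TAK1 shRNA, 3 of each. COL3A1 stands above all other chains in every library, and the network chains split between the abundant COL4A1 and COL4A2 and the scarce others.

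Summed over all 44 chains, collagen reads stood at 14486, 14284 and 14655 CPM in the control libraries and at 16112, 15026 and 16255 CPM in the knockdown libraries. The groups did not overlap, and the mean was 1.45% of the scaled library size in control and 1.58% in knockdown cells, 1.09 times the control. This is not the share of raw counts, because CPM use the scaled library sizes. Without COL3A1 the sum was 8355, 8221 and 8296 CPM in control and 8346, 7637 and 8185 CPM in knockdown libraries, which overlap. COL3A1 alone gave 42.7% ± 0.586 of collagen reads in control and 49.0% ± 0.736 in knockdown cells (SD, n = 3). The fibrillar sum was 1.2 times the control and the FACIT sum 1.07 times. The network sum was 0.862 times and the sum of the other kinds 0.933 times the control, and none of these 4 sums overlapped between the groups. For the other kinds the gap was narrow, from 2173 CPM in control replicate 3 to 2168 CPM in knockdown replicate 1. That gap is small beside the spread of the library scaling factors (0.977 to 1.026), so it depends on the scaling. Network chains went from 16.7% ± 0.375 to 13.2% ± 0.272 of collagen reads and fibrillar chains from 60.7% ± 0.662 to 66.5% ± 0.53, shares that move together because they add to the whole. These sums were not tested.

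**Figure D3:**
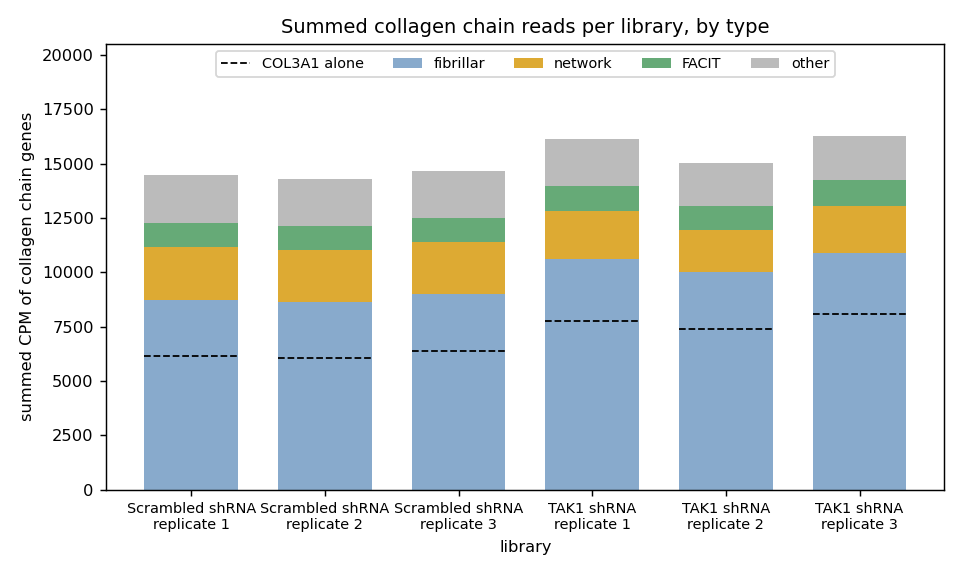
Summed CPM of the 44 collagen chain genes in each of the 6 libraries (bars from 0), divided by kind of collagen, with a dashed line at the level of COL3A1 alone. The fibrillar part of each TAK1 shRNA bar is taller than in any Scrambled shRNA bar, and the network part is shorter.

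Among fibrillar chains, COL3A1 of type III collagen and 2 of the 3 type V chains, COL5A1 and COL5A3, rose. COL3A1 (chr2:188974373-189012746), which forms the fine fibrils of loose connective tissue, was at 6131, 6063 and 6360 CPM in control and 7766, 7390 and 8070 CPM in knockdown libraries. Every knockdown library was above every control library (log2 fold change 0.32 ± 0.038 SE, adjusted p = 2.49e-07). COL5A1 (chr9:134641803-134844843) encodes a type V chain, which starts fibrils and limits their diameter. It stood at 395, 379 and 384 CPM in control and 514, 445 and 481 CPM in knockdown libraries, again without overlap (0.31 ± 0.048, adjusted p = 1.41e-05). COL5A3 (chr19:9959561-10010504), the least widespread type V chain, was at 157, 160 and 161 CPM in control libraries and 250, 217 and 236 CPM after knockdown. It rose more than either (0.56 ± 0.051, adjusted p = 4.16e-09). COL5A2, the type V chain that normally pairs with COL5A1, did not follow them. Its level was 1299, 1344 and 1390 CPM in control and 1303, 1249 and 1352 CPM in knockdown libraries, which overlap (-0.047 ± 0.042, adjusted p = 0.429). COL5A2 ends 19151 bases from the end of COL3A1 on chromosome 2, on the opposite strand.

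Type I collagen, the most abundant collagen of the body, was not called in either chain. COL1A1 was at 502, 464 and 480 CPM in control and 568, 480 and 532 CPM in knockdown libraries, with a slight overlap (0.13 ± 0.051, adjusted p = 0.0566). Its fold change was also under the fold threshold. The adjusted p of COL1A1 depended on the setting: it was 0.00732 in edgeR with library size alone and 0.0937 in DESeq2. COL1A2 was at 9.41 to 11.4 CPM in control and 8.92 to 10.3 CPM in knockdown libraries (-0.085 ± 0.11, adjusted p = 0.603).

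The fibrillar chains known from cartilage did not move as a group. COL2A1 (chr12:47972967-48004554), the main collagen of cartilage, fell from 34.4, 34.7 and 30.3 CPM to 28.9, 25.1 and 27.3 CPM, with a small gap between the groups (-0.29 ± 0.076, adjusted p = 0.00418). COL11A2 (chr6:33162681-33192499), a chain of the type XI collagen that forms the core of cartilage fibrils, rose from 0.633, 0.889 and 0.746 CPM to 1.37, 1.19 and 1.73 CPM (0.91 ± 0.32, adjusted p = 0.030). These are the weakest calls: COL11A2 rests on 18 to 57 counts per library and lost its call when any of 4 libraries was left out, and COL2A1 lost it without knockdown replicate 2. COL11A1, the partner of COL11A2 and also able to pair with type V chains, was at 82.6 to 86.1 CPM in control and 82.6 to 96.8 CPM in knockdown libraries (0.073 ± 0.057). COL27A1 (-0.037) and COL24A1 (0.16), both also fibrillar, were not called either. Of 9 chondrocyte markers, 4 could be tested. SOX9, the transcription factor that drives COL2A1 in cartilage, was at 26.7, 26.7 and 25.7 CPM in control and 11.4, 10.4 and 11.4 CPM in knockdown libraries (-1.25 ± 0.083, adjusted p = 1.64e-11). SOX6, which acts with SOX9, rose (0.40 ± 0.075, adjusted p = 1.82e-04). The list summed to 48.8 to 53.7 CPM in control and 41.1 to 44.2 CPM in knockdown libraries, with HAPLN1 at 0 and ACAN at no more than 0.141 CPM. The part of these genes in the values of COL2A1, COL11A2 and the type IX chains was not tested.

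Of the FACIT chains, COL14A1 and COL12A1, which both bind to type I collagen fibrils, went opposite ways. COL14A1, found mainly in mature tissue, was at 621, 613 and 626 CPM in control and 770, 752 and 810 CPM in knockdown libraries. It rose without overlap (0.33 ± 0.042, adjusted p = 9.52e-07). COL12A1 (chr6:75084326-75206267), which is made in tissue under mechanical load, was at 332, 341 and 333 CPM in control and 229, 225 and 255 CPM in knockdown libraries. It fell by 0.50 on the log2 scale (SE 0.048, adjusted p = 1.03e-08), and the groups were far apart.

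COL16A1 (chr1:31652263-31704319), a FACIT chain near fibrils and basement membranes, was scarce, at 2.81, 2.51 and 2.92 CPM in control and 6.81, 4.53 and 4.12 CPM in knockdown libraries. It rose (0.90 ± 0.19, adjusted p = 5.14e-04), with knockdown replicate 1 above the other two. Type IX collagen, which coats cartilage fibrils, is built of the products of COL9A1, COL9A2 and COL9A3. COL9A2 rose from 26.8, 24.0 and 28.7 CPM to 38.9, 35.4 and 35.7 CPM (0.47 ± 0.075, adjusted p = 2.37e-05). Its partners were not called: COL9A3 was at 7.03, 6.10 and 6.36 CPM in control and 5.47, 6.20 and 4.79 CPM in knockdown libraries (-0.24 ± 0.14, adjusted p = 0.188), and COL9A1 ranged from 1.58 to 2.98 CPM over all 6 libraries. COL19A1, a chain with a known place in muscle development, was at 83.8, 87.9 and 90.7 CPM in control and 93.2, 100.2 and 97.0 CPM in knockdown libraries. The groups did not overlap and the adjusted p was 0.0333, but the log2 fold change of 0.15 ± 0.052 was under the fold threshold.

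Among network chains, the 2 chains of the main basement-membrane collagen separated. COL4A1 (chr13:110148963-110307157) was at 1261, 1238 and 1231 CPM in control and 998, 897 and 1019 CPM in knockdown libraries. It fell without overlap (-0.36 ± 0.045, adjusted p = 7.83e-07). COL4A2, read from the other side of the interval shown above, was at 1193, 1123 and 1141 CPM in control and 1162, 1035 and 1109 CPM in knockdown libraries. Those groups overlap (-0.064 ± 0.044, adjusted p = 0.291). COL8A1 (chr3:99638475-99799226), a short-chain collagen of vessel walls and the cornea, showed the largest change of any chain. It was at 22.8, 21.9 and 24.1 CPM in control and 10.7, 9.88 and 9.21 CPM in knockdown libraries, below every control library (-1.21 ± 0.090, adjusted p = 1.24e-10). Its partner COL8A2 was at 1.06, 1.21 and 0.908 CPM in control and 1.30, 1.22 and 0.636 CPM in knockdown libraries, with no call (-0.012 ± 0.34). COL4A5, a type IV chain of the kidney and other specialised membranes, was near the limit of the test at 0.205 to 0.538 CPM. The 5 endothelial markers summed to 2.98 to 3.65 CPM in control and 1.78 to 2.75 CPM in knockdown libraries, nearly all of it TEK, while CDH5 and KDR were at 0 in every library.

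Among the chains of other kinds, COL26A1 and COL25A1 fell and the remaining 7 tested were not called. COL26A1 (chr7:101362875-101559024), a secreted collagen first described in testis and ovary, was at 272, 248 and 254 CPM in control and 189, 164 and 167 CPM in knockdown libraries. It fell by 0.57 on the log2 scale (SE 0.054, adjusted p = 6.52e-09). COL25A1 (chr4:108808725-109302752), a membrane-spanning collagen that muscle cells use to attract motor axons, was at 91.9, 97.6 and 100.5 CPM in control and 66.8, 70.4 and 62.4 CPM in knockdown libraries. It fell by 0.54 (SE 0.057, adjusted p = 4.65e-08), and neither gene overlapped between the groups. COL13A1, another membrane-spanning collagen and a component of the neuromuscular junction, was at 5.73 to 8.45 CPM over all libraries and was not called (0.13 ± 0.14).

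Type VI collagen, the beaded filament that links muscle fibers to their basement membrane, was not called in any of its 3 expressed chains. COL6A1 was at 447, 450 and 442 CPM in control and 477, 453 and 453 CPM in knockdown libraries, a gap that passed no test (0.046 ± 0.042, adjusted p = 0.441). COL6A2 was at 362, 352 and 347 CPM in control and 381, 339 and 342 CPM in knockdown libraries (0.0023 ± 0.048, adjusted p = 0.979). COL6A3 had a log2 fold change of -0.084 ± 0.048. Of the multiplexins, which carry heparan or chondroitin sulfate chains in basement membranes, COL18A1 was not called (-0.042 ± 0.059). COL15A1 had an adjusted p of 0.0485 with a log2 fold change of -0.17 ± 0.067, under the fold threshold. COL7A1, the anchoring fibril chain of skin, was at 6.19 to 8.04 CPM over all libraries (-0.10 ± 0.13).

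The ratio between partner chains was compared in 11 pairs, each as the log2 ratio of CPM per kilobase. With 3 libraries against 3, the exact two-sided permutation test cannot go below p = 0.1, which after adjustment over the 11 pairs is 0.14, so no pair could pass 0.05. For COL4A1 over COL4A2 the log2 ratio was 0.060, 0.12 and 0.088 in control and -0.24, -0.23 and -0.14 in knockdown libraries, without overlap (exact permutation p = 0.1). Its mean as a plain ratio went from 1.06 to 0.868. Which chain stands higher depends on the transcript length used: with the union of all exons the control ratio was 1.42, a factor that leaves the difference between the groups as it is. For COL5A1 over COL5A2 the ratio went from 0.233 to 0.298, and for COL8A1 over COL8A2 from 18.5 to 8.37, both without overlap (exact permutation p = 0.1). COL9A3 over COL9A2 went from 0.28 to 0.17, and COL2A1 over COL11A2 from 56.0 to 24.4, also without overlap (exact permutation p = 0.1). COL1A1 exceeded COL1A2 by 39.9 times in control and 46.1 times in knockdown cells (exact permutation p = 0.1), although the usual type I trimer holds both chains. With the union of all exons the control ratios were 10.8 for COL8A1 over COL8A2, 0.189 for COL5A1 over COL5A2, 0.213 for COL9A3 over COL9A2, 48.8 for COL2A1 over COL11A2 and 55.9 for COL1A1 over COL1A2. The ratios within type VI collagen overlapped, at 1.03 and 1.07 for COL6A1 over COL6A2 (exact permutation p = 0.3) and 0.454 and 0.415 for COL6A3 over COL6A1 (exact permutation p = 0.3). Their control ratios with the union of all exons were 1.22 and 0.293.

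**Figure D4:**
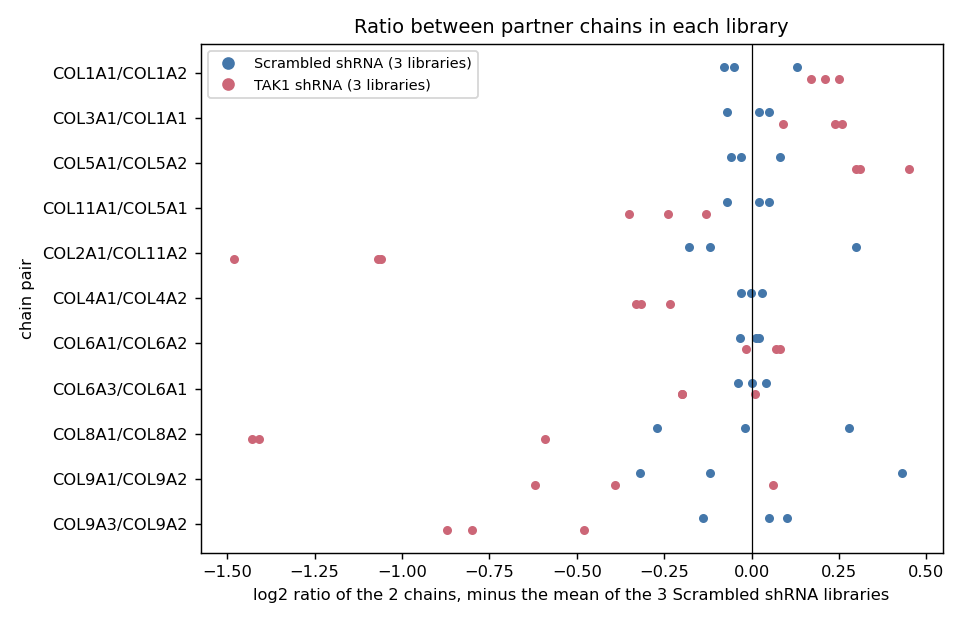
Log2 ratio of each pair of partner chains in each library, minus the mean of the 3 Scrambled shRNA libraries (horizontal axis); each point is 1 library, blue for Scrambled shRNA and red for TAK1 shRNA. The COL4A1/COL4A2 points of the groups are separate, by 0.29 on average, and those of COL6A1/COL6A2 and COL9A1/COL9A2 overlap.

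Calls were also compared between neighbouring chain genes. Within 500000 bases of each other lie 9 pairs of chain genes. Both genes could be tested in 5 of these pairs, and none had both called, while 2 had 1 called, namely COL4A1 with COL4A2 and COL3A1 with COL5A2. Calls covered 40.6% of the tested chains and 23.1% of all tested genes. At those shares 5 pairs are too few to tell whether neighbours are called together. Exons of 12 tested chains overlap exons of another gene. Of the called chains these are COL5A1, COL5A3 and COL16A1, with an antisense RNA, and COL3A1, with a microRNA on its own strand. Whether the counting used strand is not given in the sources used here, so reads of antisense partners could be included.

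The 12 chains under the filter were silent or nearly so in these cells. COL22A1, a FACIT chain of the muscle-tendon junction, had no read in any library, which allows a level of up to 0.106 CPM in the shallowest control library (3 counts, counting error only). The type IV chains COL4A3, COL4A4 and COL4A6 had at most 12, 13 and 1 counts in a library. COL10A1, the collagen of growth-plate cartilage, had at most 5. The FACIT chains COL20A1 and COL21A1 had at most 4 and 1. Among the other kinds, the highest count was 4 for COL23A1, 2 for COL28A1, 1 for COL17A1, 2 for COL6A6 and 1 for COL6A5. At these counts no difference between groups was detectable.

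Collagen chains are hydroxylated, glycosylated and folded in the endoplasmic reticulum, exported, trimmed outside the cell and crosslinked. Of 33 genes of this route, 30 could be tested, 2 rose and 5 fell, and the median log2 fold change was 0.0010. With the fold threshold, the called share of 23.3% was close to the 23.1% over all tested genes. Of the lysyl oxidases, which crosslink fibrils, LOXL4 was at 258, 255 and 240 CPM in control and 89.2, 87.7 and 93.6 CPM in knockdown libraries. It fell by 1.48 on the log2 scale (SE 0.049, adjusted p = 1.79e-16). LOX fell (-0.59 ± 0.073, adjusted p = 5.6e-07) and LOXL1 fell (-0.28 ± 0.056, adjusted p = 2.61e-04), while LOXL2 rose (0.29 ± 0.055, adjusted p = 2.33e-04) and LOXL3 was not called (-0.14 ± 0.053). Of the genes listed under propeptide cleavage, TLL2, a relative of BMP1, was at 462, 471 and 462 CPM in control and 287, 293 and 297 CPM in knockdown libraries. It fell by 0.67 (SE 0.042, adjusted p = 6e-12), and ADAMTS2 fell by 0.36 (SE 0.073, adjusted p = 4.33e-04), whereas BMP1 itself had a log2 fold change of 0.018 ± 0.062. TLL2 was listed as a relative of BMP1, and whether it removes collagen propeptides was not tested. COLGALT2, an enzyme of the endoplasmic reticulum, adds galactose to hydroxylysine. It rose from 3.69, 3.52 and 5.03 CPM to 6.50, 5.32 and 6.48 CPM (0.58 ± 0.16, adjusted p = 0.00567). A further 9 genes had an adjusted p under 0.05 and missed only the fold threshold. These included the chaperones FKBP10 (0.21 ± 0.044, adjusted p = 4.22e-04) and SERPINH1 (-0.18 ± 0.044, adjusted p = 0.00231). The prolyl 3-hydroxylase P3H1 (0.17 ± 0.045, adjusted p = 0.00422) and the lysyl hydroxylase PLOD1 (0.16 ± 0.046, adjusted p = 0.00953) were among them too. The others were P3H4, PPIB, MIA2, MIA3 and LOXL3. Without the fold threshold, 8 of the 30 tested genes of the route rose and 8 fell, where 33.3% of all tested genes were called. The closeness to the share over all genes therefore held only with the fold threshold.

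**Figure D5:**
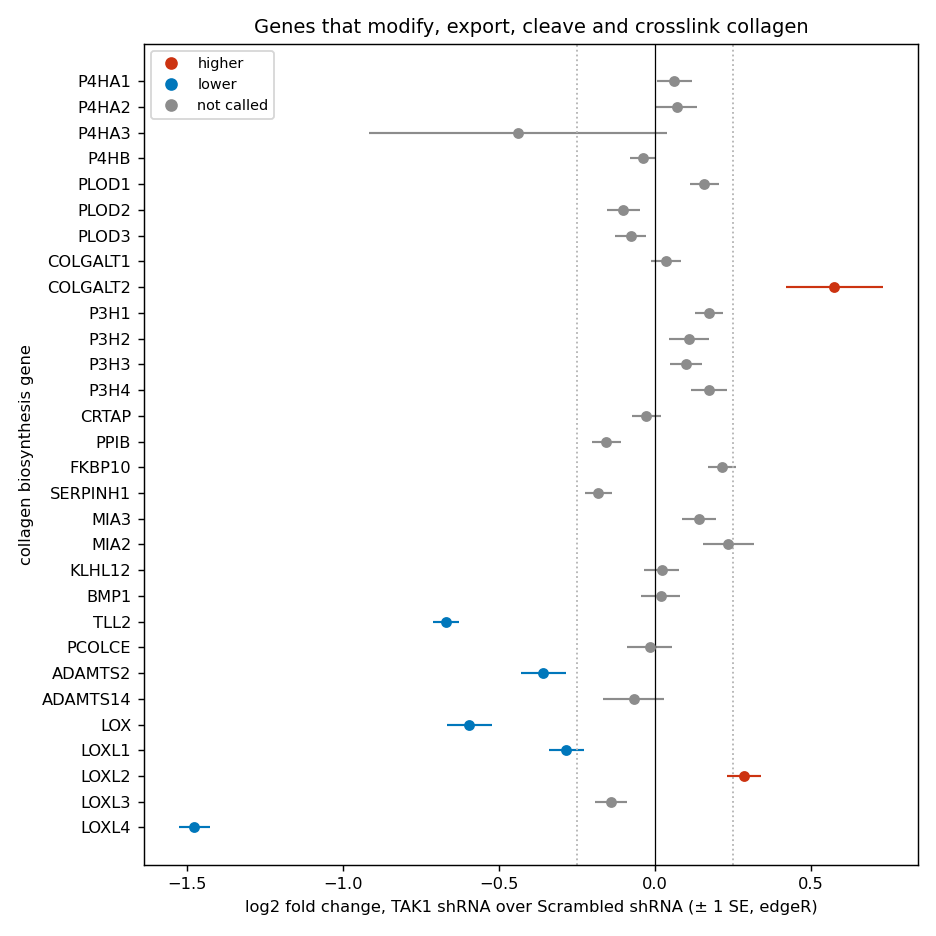
Log2 fold change of TAK1 shRNA over Scrambled shRNA for the 30 tested genes of collagen biosynthesis. From top to bottom are hydroxylation (P4H and PLOD genes), glycosylation, the P3H hydroxylase genes with folding, export, propeptide cleavage and crosslinking. Points are edgeR estimates from 3 libraries against 3, bars are ± 1 SE, and dotted lines mark the fold threshold of 0.25. LOXL4 lies farthest to the left, at -1.48, and most other genes lie within the dotted lines.

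Of 10 collagen receptors, 8 could be tested, of which 1 rose and 1 fell, a share of 25% beside the 23.1% over all tested genes. ITGB1, the beta subunit shared by all collagen-binding integrins, was at 287, 287 and 295 CPM in control and 109, 115 and 124 CPM in knockdown libraries. It fell by 1.32 on the log2 scale (SE 0.050, adjusted p = 1.08e-15). Its partner ITGA1, which with ITGB1 binds type IV collagen, rose from 51.2, 53.3 and 51.6 CPM to 59.2, 64.4 and 67.8 CPM (0.29 ± 0.061, adjusted p = 4.5e-04). The collagen receptor kinases DDR1 (0.22 ± 0.061) and DDR2 (0.23 ± 0.047) had adjusted p-values of 0.00676 and 4.91e-04 but were under the fold threshold.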

How the data were processed

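Poly(A)-selected RNA of 6 RD cell samples was sequenced by the authors, who called bases with CASAVA, aligned reads with STAR to GRCh38/hg38 and deposited raw counts per gene, 1 column per sample. The counter, annotation release and use of strand are not given in the sources used here. Totals were 28839898 to 34469323 counts, and intervals from counts cover counting error only.

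Counts were tested with the edgeR quasi-likelihood test (edgeR 4.0.16, R 4.3.3) after filterByExpr and scaling by the trimmed mean of M-values, Scrambled shRNA against TAK1 shRNA. P-values were adjusted by Benjamini-Hochberg over all 15935 genes tested. A gene was called when its adjusted p was below 0.05 and its log2 fold change, up or down, reached 0.25, the thresholds in the study's methods. CPM use the scaled library sizes, and CPM per kilobase the canonical transcript of GENCODE 44, matched by symbol. Partner ratios were compared by an exact two-sided permutation test (scipy 1.17.1). In data simulated for this comparison over 15519 genes, 82 of 97 genes changed by a log2 fold of 1 and 60 of 96 changed by 0.5 were recovered, with 6 false calls. Only 200 genes were given a change there, as many up as down, whereas 23.1% of all tested genes were called in the data. The simulation therefore does not test false calls or scaling at that share.

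The members, the gene lists (biosynthesis, receptors, and muscle, fibroblast, chondrocyte, epithelial, endothelial and leukocyte markers) and the tests were chosen with earlier results of these data known. Values in every sample are given for called chains and for the 2 uncalled chains of each kind with the highest counts per kilobase. Other tested chains are given by range or by fold change, chains under the filter by their highest count, and called genes of the biosynthesis and receptor lists by name. Other genes named from those lists were chosen after their values were seen. Alternatives were other scalings (relative log expression, upper quartile, library size alone), other filters, DESeq2 1.42.0, limma 3.58.1 (voom), other fold thresholds, the replicate number as a block, and leaving out each library. Replicates of a group differed by more than sampling noise (chi-square per degree of freedom 2.88 to 8.6), so none was the same library read again. Separate cultures and separate preparations of the same RNA cannot be told apart by this comparison with counting noise.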

Additional observations from a re-analysis of the deposited data

How the results depend on the processing

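The same 13 chains were called with relative log expression, upper-quartile scaling, no filter, a minimum of 10 counts in each library, DESeq2, limma voom and the replicate block, with 7 higher and 6 lower in each. Same-numbered samples of the groups deviated together only weakly (correlations 0.037, 0.0364 and 0.0165 over 15935 genes), so the numbers were not taken to pair samples, and the replicate block called 3790 of all genes against 3684. With library size alone COL2A1 (-0.24, adjusted p = 0.0163) fell under the fold threshold, leaving 12 chains, biosynthesis genes called higher became 4, and 62.9% of all calls were higher against 51.0%. Without a fold threshold 15 chains were called, COL15A1 and COL19A1 being added, as were 33.3% of all genes, and biosynthesis genes became 8 higher and 8 lower. At a threshold of 0.5, 7 chains kept their call (3 higher, 4 lower) beside 8.88% of all genes. Of these 2 were fibrillar, 1 network and 2 FACIT, with 1 biosynthesis gene higher and 3 lower. Leaving out 1 library left 12 or 13 chains called. COL11A2 lost its call without control replicate 1 or 3 or knockdown replicate 1 or 3 (adjusted p 0.0506 to 0.133), and COL2A1 without knockdown replicate 2 (log2 fold change -0.24). Biosynthesis genes called higher ranged from 1, without knockdown replicate 3, to 3. The cause of these shifts was not tested. The union-exon length was added after seeing the data. Chains at a few counts per library are too shallow for a comparison.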
